A study of Mus musculus with 23 samples.

Results

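The carriers of inorganic ions described here are the mouse genes whose symbol on the array platform begins with Slc4a, Slc8a, Slc9a, Slc12a, Slc13a, Slc20a, Slc24a, Slc26a or Slc34a. The array held 111 such probe sets with 1 symbol, out of 45101 probe sets in all, and these stood for 54 genes. A further probe set with several symbols was not named. After a filter on dim signals, which kept a probe set with a signal above its array's median on 5 or more arrays, 54 of the 111 probe sets were left. They stood for 30 genes, which were tested among 12463 genes. The number of genes tested was 6 of 10 in the Slc4a family, 1 of 3 in Slc8a, 7 of 9 in Slc9a, 5 of 8 in Slc12a, 3 of 5 in Slc13a, 2 of 2 in Slc20a, 1 of 4 in Slc24a, 4 of 10 in Slc26a and 1 of 3 in Slc34a. The label does not hold for Slc9a3r1, Slc9a3r2 and Slc4a1ap, which match by name but encode scaffold or adaptor proteins and not carriers. It holds only in part for Slc13a2 and Slc13a5, sodium-coupled carriers of dicarboxylates and citrate, which are organic. Counts over the 30 include all of these.

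RNA of colon from C57BL/6J mice, an inbred laboratory strain, aged 12 to 14 weeks, was hybridised to 1 array per animal. Their drinking water held 3% DSS (dextran sulfate sodium), a polymer used to injure the lining of the colon. Per the labels, separate cohorts were taken before DSS (day 0, 5 mice) and after 2, 4 and 6 days of it (6 mice each), and no genetic change is named for any group. The stretch of colon, the hour of sampling and the hybridization batch are unknown from the labels. Arrays are named by day and mouse number, and a number marks no shared animal between days. Values are the authors' signal intensities on a linear scale. A log2 change is a difference between days in the mean of log2(signal + 16), which understates changes of dim genes. Signals of different probe sets were not set against each other, because probes differ in brightness.

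The colon absorbs salt by coupling a sodium-proton exchanger in the apical membrane to a chloride-bicarbonate exchanger beside it, and water follows. It secretes fluid when a sodium-potassium-chloride cotransporter in the basolateral membrane loads the cell with chloride that leaves through apical channels. Basolateral sodium bicarbonate cotransporters and anion exchangers supply bicarbonate and set cell pH. Other carriers of these families move phosphate, sulfate, dicarboxylates or calcium. In humans, inherited loss of SLC26A3 causes congenital chloride diarrhea.

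Relative to day 0, 0 of the 30 tested carrier genes passed at day 2, 5 at day 4 and 12 at day 6 (limma, Benjamini-Hochberg adjusted p of 0.05 or less). At day 2, 0 carriers fell and 0 rose, where 0.0642% of all genes fell and 0.0160% rose. An unadjusted limma p below 0.05 was seen for 6 of the 30 carriers. The share of all genes with such a p was not counted, so this does not set the carriers apart. The day 2 arrays lay wholly below day 0 for 1 carrier (Slc34a2) and wholly above for 1 (Slc4a11), against 1.01% and 1.28% of all genes. At day 4, 2 carriers fell and 3 rose, where 4.34% of all genes fell and 12.1% rose. Slc34a2 and Slc9a2 fell, and Slc20a2, Slc24a3 and Slc12a4 rose. The median log2 change was 0.01 over the carriers and 0.06 over all genes. At day 4 the arrays lay wholly below those of day 0 for 2 carriers and wholly above for 2, against 2.47% and 7.61% of all genes.

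At day 6, 9 of the 30 carriers fell and 3 rose relative to day 0, where 14.4% of all genes fell and 18.1% rose. Those that fell were Slc20a1, Slc34a2, Slc26a2, Slc26a3, Slc9a2, Slc4a4, Slc12a8, Slc12a7 and Slc12a2. Those that rose were Slc4a11, Slc9a9 and Slc12a4. The median log2 change was -0.11 over the 30 carriers and 0.02 over all genes. All arrays of day 6 lay below all arrays of day 0 for 4 carriers and above them for 2, against 6.67% and 9.93% of all genes. Without day 6 mouse 1, the count of carriers that rose was 5. The 3 comparisons with day 0 share its 5 arrays, so their calls are not independent of each other.

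Between successive days, 3 carriers fell and 0 rose at day 4 relative to day 2, where 4.12% of all genes fell and 9.45% rose. These were Slc13a1, Slc12a8 and Slc9a2. Of the 30 carriers, 0 had arrays of the 2 days without overlap, against 1.08% of genes below and 4.21% above. The count that fell was 1 without day 4 mouse 4 and 5 without day 4 mouse 7. The count that rose was 1 without any of day 2 mouse 17, day 4 mouse 7, day 4 mouse 8, day 6 mouse 3 or day 6 mouse 21. At day 6 relative to day 4, 6 of the 30 genes fell (5 carriers and the scaffold gene Slc9a3r2) and 1 rose, where 13.7% of all genes fell and 9.07% rose. Slc20a1, Slc26a3, Slc4a4, Slc26a2, Slc9a3r2 and Slc12a2 fell and Slc4a11 rose. Day 6 arrays lay wholly above those of day 4 for 1 carrier and wholly below for 0, against 3.13% and 4.49% of all genes. Without day 4 mouse 4, the count that rose was 2.

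**Figure D1:**
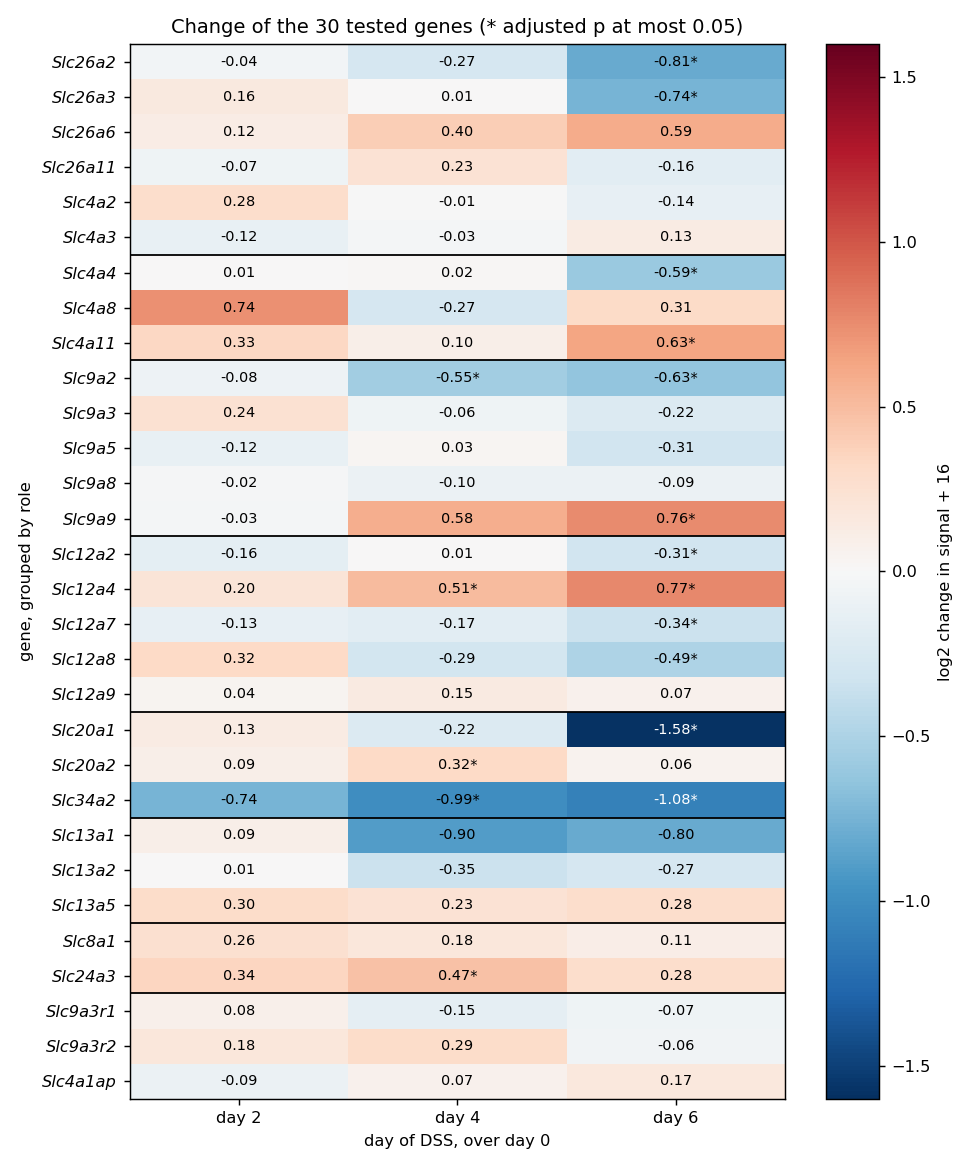
Each cell gives the log2 change of 1 of the 30 tested genes (rows, grouped by role) at day 2, 4 or 6 over day 0 (columns), with an asterisk where limma's adjusted p was at most 0.05. The darkest cell is Slc20a1 at day 6 (-1.58), the day 2 column has no asterisk, and the sodium-proton exchange rows hold 1 gene that fell (Slc9a2) and 1 that rose (Slc9a9) at day 6.

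Control measures moved with day, and 4 arrays stood apart by high sums of pancreas markers or low sums of squamous epithelium markers. The hybridization controls, transcripts of other organisms added to each sample, had log2 levels of 11.33 to 11.49 at day 0, 11.13 to 11.44 at day 2, 10.80 to 11.13 at day 4 and 10.65 to 11.12 at day 6. Day 0 does not overlap with day 4 or day 6 in this level. Day 2 does not overlap with day 4 either, by a narrow margin (lowest 11.1313 at day 2, highest 11.1297 at day 4). The level and the day therefore cannot be told apart in the comparisons of day 4 or day 6 with day 0 and of day 4 with day 2. With it as a covariate, 10 of the 27 calls of a carrier in a comparison passed. The share of all genes that passed with the covariate was not counted. These were Slc34a2 at days 4 and 6 over day 0, Slc20a1, Slc26a2 and Slc12a4 at day 6 over day 0, and Slc20a1, Slc26a2, Slc26a3, Slc4a4 and Slc4a11 at day 6 over day 4. The log2 change with the covariate was larger in size for 9 of these 10 and smaller for 1 (Slc4a11), and it came to -1.64 and -1.93 for Slc34a2 at days 4 and 6 and to -2.19 for Slc20a1 at day 6 over day 0. The other 17 calls kept their direction with adjusted p up to 0.868, and their log2 change was larger for 8 and smaller for 9. Among the larger ones, Slc26a3 came to -1.01 (adjusted p = 0.0618), Slc4a4 to -0.81 (adjusted p = 0.0668) and Slc9a9 to 1.08 (adjusted p = 0.101) at day 6 over day 0. Among the smaller ones, Slc12a2 came to -0.07 at day 6 over day 0 (adjusted p = 0.868) and Slc20a2 to 0.14 at day 4 over day 0 (adjusted p = 0.685). The log2 ratio of 3′ to 5′ probe sets of beta-actin averaged 0.43 at day 0, 0.46 at day 2, 0.61 at day 4 and 0.51 at day 6. It ran from 0.399 to 0.446 at day 0, 0.527 to 0.704 at day 4 and 0.475 to 0.588 at day 6. That of Gapdh ran from -0.464 to -0.326 at day 0, -0.270 to -0.183 at day 4 and -0.295 to -0.194 at day 6. Neither ratio at day 0 overlapped with day 4 or day 6, so ratio and day cannot be told apart there.

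Pancreas markers summed to 142270 on day 2 mouse 6 and 41222 on day 6 mouse 1, and squamous epithelium markers to 589 on day 2 mouse 8 and 837 on day 4 mouse 8. Medians of the squamous sum were 7227 at day 0, 11214 at day 2, 23782 at day 4 and 25791 at day 6. Without these 4 arrays, 0 carriers passed at day 2, 3 fell and 2 rose at day 4, and 10 fell and 5 rose at day 6, relative to day 0. At day 4 relative to day 2, 4 fell and 0 rose without them, and at day 6 relative to day 4, 5 fell and 1 rose. Shares of all genes without these arrays were not counted.

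Promoters are shown for 3 genes that the results turn on: Slc20a1 with the largest decrease at day 6, Slc26a3 as the apical chloride exchanger, and Slc12a4 as a carrier that rose with all day 6 arrays above all of day 0. Each window covers 250 bases before to 50 bases after a RefSeq start in GRCm38.p6. The Slc20a1 window of the first of its starts lies at chr2:129198523-129198822 on the plus strand, the Slc26a3 window at chr12:31437969-31438268 on the plus strand and the Slc12a4 window at chr8:105966066-105966365 on the minus strand. Capitals mark matches to searched motifs.
Slc20a1: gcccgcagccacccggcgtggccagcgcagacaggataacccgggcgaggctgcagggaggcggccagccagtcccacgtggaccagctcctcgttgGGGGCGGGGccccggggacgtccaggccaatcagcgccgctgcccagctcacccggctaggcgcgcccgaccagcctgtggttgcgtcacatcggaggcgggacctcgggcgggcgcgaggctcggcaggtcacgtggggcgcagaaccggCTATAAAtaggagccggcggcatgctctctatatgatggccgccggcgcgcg
Slc26a3: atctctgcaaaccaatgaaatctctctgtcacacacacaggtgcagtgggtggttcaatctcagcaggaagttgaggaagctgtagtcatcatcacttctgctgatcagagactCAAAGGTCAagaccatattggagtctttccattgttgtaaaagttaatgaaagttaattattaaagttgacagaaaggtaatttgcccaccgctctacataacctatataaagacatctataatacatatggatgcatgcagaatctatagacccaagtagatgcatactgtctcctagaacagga
Slc12a4: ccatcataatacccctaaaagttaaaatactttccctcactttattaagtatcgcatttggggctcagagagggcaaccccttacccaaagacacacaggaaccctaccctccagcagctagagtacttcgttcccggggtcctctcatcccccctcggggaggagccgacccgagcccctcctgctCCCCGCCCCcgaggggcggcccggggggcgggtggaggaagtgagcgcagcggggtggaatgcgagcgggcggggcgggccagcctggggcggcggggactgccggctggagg
Both strands were searched for the letters TTTATNG for the CDX factors, CAAAGNNCA for HNF4, GATAAG for zinc finger factors called GATA, and GGGGCGGGG for the GC box. The capitals in Slc20a1 are a GC box and the CDX letters on the other strand, and these last letters overlap TATAAA, the core of a TATA box. Those in Slc26a3 are the HNF4 letters, and those in Slc12a4 are the GC box on the other strand. Windows were at hand for 23 of the 30 tested genes, 32 in all. The letters of CDX were in 3 of these 32 windows and in 10.9% of 32851 windows of all genes. Those of HNF4 were in 1 and in 6.36%, those of GATA in 2 and in 7.44%, and those of the GC box in 5 and in 11.4%. A match describes letters in the window and no binding.

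Among the 6 anion exchangers, 2 fell at day 6 and 4 did not pass. Slc26a3, the chloride-bicarbonate exchanger of the apical colonocyte membrane, had a lowest, median and highest signal of 5567, 9603 and 11796 at day 6, against 13514, 12752, 14529, 17894 and 15166 on the 5 arrays of day 0. Every day 6 array lay below every day 0 array. The mean was 9051 ± 2286 at day 6 (SD, n = 6) and 14771 ± 1976 at day 0 (SD, n = 5), a log2 change of -0.74 ± 0.18 (SE, adjusted p = 0.00344). In bulk tissue, fewer cells of a type and less RNA per cell cannot be told apart. At day 4 the lowest, median and highest signals were 8502, 16599 and 19854, with a log2 change over day 0 of 0.01 ± 0.18 (adjusted p = 0.980). The lowest of those was day 4 mouse 4, and the rest of day 4 lay between 12472 and 19854. Relative to day 4, Slc26a3 fell by 0.75 on the log2 scale at day 6 (adjusted p = 0.00342). The probe set that stands for it has the suffix _s_at, which the maker gives to sets that match more than 1 transcript.

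Slc26a2, a sulfate carrier that exchanges sulfate for other anions, had 4652, 6649 and 7080 as lowest, median and highest signal at day 6, against 9746, 11373, 11380, 10275 and 10106 at day 0. The days did not overlap. The log2 change was -0.81 ± 0.11 (adjusted p = 6.43e-06), with means of 6101 ± 1085 at day 6 (SD, n = 6) and 10576 ± 755 at day 0 (SD, n = 5). At day 6 it was also lower than at day 4, where the mean was 8832 ± 1172 (SD, n = 6; log2 change -0.54, adjusted p = 0.000622). Day 4 over day 0 gave -0.27 ± 0.11 (adjusted p = 0.0969) on this probe set.

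The other anion exchangers did not pass in any of the 5 comparisons. Slc4a2, the basolateral chloride-bicarbonate exchanger, had signals of 1842, 2050 and 2444 (lowest, median, highest) at day 6, against 2245, 2404, 2594, 1827 and 2612 at day 0, with a log2 change of -0.14 ± 0.11 (adjusted p = 0.377). Slc26a6, another apical anion exchanger, was dim, with 50.9 to 167 at day 6 and 58.3 to 88.3 at day 0 (log2 change 0.59 ± 0.31, adjusted p = 0.147). Slc26a11 and Slc4a3 had log2 changes of -0.16 and 0.13 at day 6, with adjusted p of 0.447 and 0.607.

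Of the 3 genes grouped as sodium bicarbonate cotransport with Slc4a11, 1 fell and 1 rose at day 6. Slc4a4, the sodium bicarbonate cotransporter of the basolateral membrane, had 927, 1231 and 2108 as lowest, median and highest signal at day 6, against 1667, 2098, 2280, 1976 and 1644 at day 0. On 5 of the 6 day 6 arrays it was below all of day 0, and day 6 mouse 29 had the 2108. The log2 change was -0.59 ± 0.15 (adjusted p = 0.00394) over day 0 and -0.61 ± 0.14 (adjusted p = 0.00318) over day 4, and the call over day 4 ended when its probe sets were averaged (adjusted p = 0.0850). The means were 1933 ± 276 at day 0 (SD, n = 5), 1968 ± 293 at day 4 (SD, n = 6) and 1317 ± 420 at day 6 (SD, n = 6).

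Slc4a11, a relative of the bicarbonate carriers that conducts protons or hydroxide and is known from the corneal endothelium, had 335, 392 and 463 at day 6, against 263, 277, 152, 275 and 278 at day 0. All day 6 arrays lay above all of day 0, and above the 191 to 325 of day 4. The log2 change was 0.63 ± 0.14 over day 0 (adjusted p = 0.00114) and 0.53 ± 0.13 over day 4 (adjusted p = 0.00495). The 6 arrays of day 2, at 281 to 333, also lay above those of day 0, but the log2 change of 0.33 ± 0.14 did not pass (adjusted p = 0.302). Slc4a8, a sodium-driven chloride-bicarbonate exchanger, was dim and spread widely, with 38.0 to 146 at day 6 and 27.9 to 164 at day 0 (log2 change 0.31 ± 0.50, adjusted p = 0.673).

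Among the 5 sodium-proton exchangers, Slc9a2 fell, Slc9a9 rose and 3 did not pass at day 6. Slc9a2, an exchanger of the apical epithelial membrane, had 3214, 3251, 3239, 2926 and 3648 at day 0, 1476, 2277 and 2774 (lowest, median, highest) at day 4, and 1633, 1990 and 2809 at day 6. Days 4 and 6 lay wholly below day 0. The log2 change over day 0 was -0.55 ± 0.13 at day 4 (adjusted p = 0.00654) and -0.63 ± 0.13 at day 6 (adjusted p = 0.000776). Day 2, with a mean of 3088 ± 298 (SD, n = 6), overlapped with day 0, which averaged 3256 ± 257 (SD, n = 5). At day 4 over day 2 the log2 change was -0.48 ± 0.13 (adjusted p = 0.0183), and this call ended without day 4 mouse 4 (adjusted p = 0.0512).

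Slc9a9, an exchanger of endosomes, averaged 290 ± 103 at day 6 (SD, n = 6) and 158 ± 28.4 at day 0 (SD, n = 5), with a log2 change of 0.76 ± 0.22 (adjusted p = 0.0111). The lowest, median and highest signals were 169, 265 and 425 at day 6, against 138, 206, 162, 140 and 144 at day 0. The days overlapped, since day 6 mouse 3 at 169 was below day 0 mouse 2 at 206. At day 4 the log2 change over day 0 was 0.58 ± 0.22 (adjusted p = 0.0802).

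Slc9a3, the main sodium absorber of the apical membrane, did not pass at any day. It had 1540, 1877 and 2030 at day 6, against 2172, 2249, 1739, 1940 and 2730 at day 0 (log2 change -0.22 ± 0.24, adjusted p = 0.516). Its spread was wide at days 2 and 4, with 1657 to 4141 at day 2 and 949 to 3681 at day 4. Slc9a5 and Slc9a8 had log2 changes of -0.31 and -0.09 at day 6, with adjusted p of 0.152 and 0.762.

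**Figure D2:**
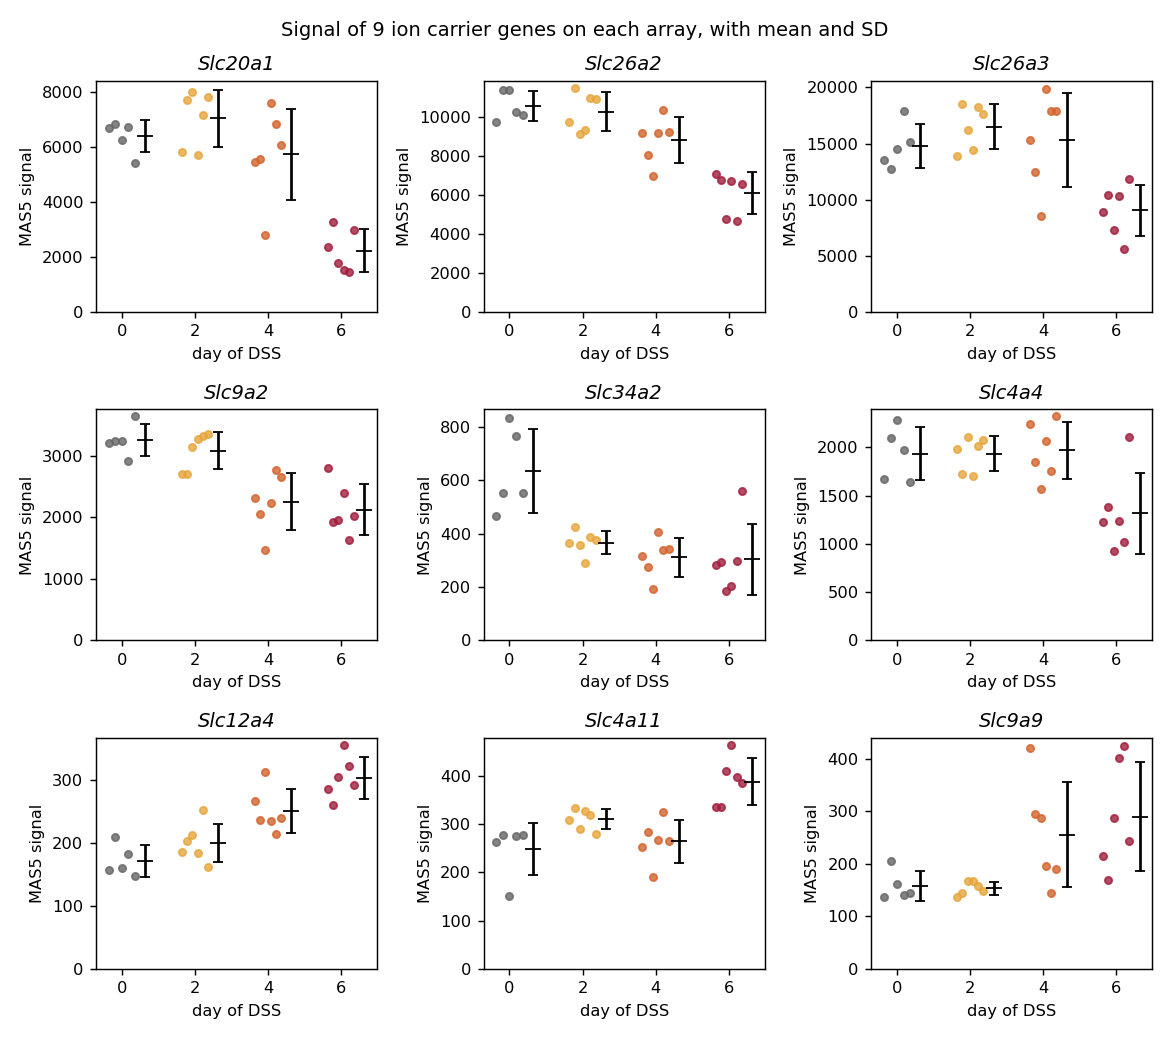
Signal (vertical axis, linear scale from 0, separate for each gene) of 9 carriers by day of DSS (horizontal axis), with 1 point per array and a bar for the mean and SD of 5 (day 0) or 6 arrays. Slc20a1 sits between 1451 and 3273 at day 6 and between 5419 and 6830 at day 0, while Slc12a4 sits between 261 and 357 at day 6 and between 148 and 210 at day 0.

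Among the 5 cation-chloride cotransporters, 3 fell and 1 rose at day 6. Slc12a2, the sodium-potassium-chloride cotransporter that loads secretory cells with chloride, had 5956, 6621 and 7750 at day 6, against 8414, 8297, 8664, 7630 and 8383 at day 0. Only the highest day 6 array, mouse 1, reached into the range of day 0. The log2 change was -0.31 ± 0.10 (adjusted p = 0.0179), with means of 6686 ± 623 at day 6 (SD, n = 6) and 8277 ± 387 at day 0 (SD, n = 5). Over day 4, which averaged 8399 ± 1173 (SD, n = 6), it was -0.32 ± 0.09 (adjusted p = 0.0153).

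Slc12a7, a potassium-chloride cotransporter, had 1495, 1974 and 2064 at day 6, against 2376, 2466, 2669, 2052 and 2266 at day 0 (log2 change -0.34 ± 0.09, adjusted p = 0.00435). The ranges met only at day 6 mouse 4 and day 0 mouse 4. Slc12a8, a distant member of the family, had 851, 1078 and 1376 at day 6, against 1626, 1515, 1329, 1418 and 1537 at day 0 (log2 change -0.49 ± 0.15, adjusted p = 0.0144). It was also lower at day 4, with a mean of 1243 ± 325 (SD, n = 6), than at day 2, with 1880 ± 322 (SD, n = 6; log2 change -0.62 ± 0.14, adjusted p = 0.00956).

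Slc12a4, a potassium-chloride cotransporter found in most tissues, moved the other way. It had 157, 210, 161, 183 and 148 at day 0, 214, 239 and 314 (lowest, median, highest) at day 4, and 261, 299 and 357 at day 6. Days 4 and 6 lay wholly above day 0. The log2 change over day 0 was 0.51 ± 0.12 at day 4 (adjusted p = 0.00602) and 0.77 ± 0.12 at day 6 (adjusted p = 3.39e-05). Day 2, at 162 to 252, overlapped with day 0 (log2 change 0.20 ± 0.12, adjusted p = 0.505). Slc12a9 had a log2 change of 0.07 ± 0.11 at day 6 (adjusted p = 0.671).

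Among the 3 sodium phosphate cotransporters, 2 fell at day 6. Slc20a1, which takes up phosphate in most cells, had 1451, 2072 and 3273 at day 6, against 6687, 6830, 6245, 6717 and 5419 at day 0. Every array of day 6 was below every array of day 0. The log2 change was -1.58 ± 0.21 (adjusted p = 6.1e-06), or 0.335 of the day 0 level, with means of 2227 ± 771 at day 6 (SD, n = 6) and 6380 ± 582 at day 0 (SD, n = 5). At day 4 it had 2810, 5821 and 7598, and the change over day 0 did not pass (-0.22 ± 0.21, adjusted p = 0.522). The array at 2810 was day 4 mouse 4, and the other 5 lay between 5454 and 7598. Day 6 over day 4 gave -1.36 ± 0.20 (adjusted p = 4.63e-05). The other kept probe set of Slc20a1, tested on its own, gave -0.62 ± 0.23 there and did not pass (adjusted p = 0.0654).

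Slc34a2, the phosphate cotransporter of the apical membrane in intestine and lung, fell at days 4 and 6. Its signals were 468, 551, 833, 767 and 552 at day 0. The lowest, median and highest were 289, 371 and 424 at day 2, 191, 327 and 408 at day 4, and 183, 289 and 559 at day 6. Days 2 and 4 lay wholly below day 0, and at day 6 mouse 29 alone, at 559, reached into its range. The log2 change over day 0 was -0.74 ± 0.21 at day 2 (adjusted p = 0.128), -0.99 ± 0.21 at day 4 (adjusted p = 0.00296) and -1.08 ± 0.21 at day 6 (adjusted p = 0.000406). Day 4 over day 2 and day 6 over day 4 did not pass, with adjusted p of 0.428 and 0.792, and day 6 was not compared with day 2.

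Slc20a2, the other phosphate carrier of most cells, averaged 712 ± 91.8 at day 4 (SD, n = 6) and 567 ± 71.6 at day 0 (SD, n = 5), with a log2 change of 0.32 ± 0.10 (adjusted p = 0.0340). The lowest, median and highest signals were 581, 719 and 822 at day 4, against 636, 652, 522, 494 and 531 at day 0, and the days overlapped. This call ended when any of 6 arrays was left out. The adjusted p was 0.0832, 0.0922 and 0.0791 in the absence of day 0 mice 3, 4 and 5, and 0.0780, 0.0739 and 0.0629 in the absence of day 4 mice 4, 6 and 8. It also ended without the 4 arrays that stood apart (adjusted p = 0.0691), with median centring (0.0803), with the mean of its probe sets (0.362) and with only the 2 days compared (0.0546). At day 6 the log2 change was 0.06 ± 0.10 (adjusted p = 0.701).

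The 3 sodium-coupled carriers of sulfate and carboxylates did not pass at any day relative to day 0. Slc13a1, a sulfate cotransporter, had 645, 445, 643, 723 and 707 at day 0, 138, 350 and 671 (lowest, median, highest) at day 4, and 222, 343 and 592 at day 6. The log2 changes over day 0 were -0.90 ± 0.34 at day 4 (adjusted p = 0.0764) and -0.80 ± 0.34 at day 6 (adjusted p = 0.0759). At day 4 over day 2, where signals ran from 243 to 1124, it fell by 0.99 ± 0.33 (adjusted p = 0.0469). That call ended when any of 15 of the 23 arrays was left out, with adjusted p between 0.0507 (day 0 mouse 2) and 0.126 (day 4 mouse 1). It also ended with median centring (adjusted p = 0.0592), without the filter (0.0625), with the mean of the probe sets of every gene (0.0512) and with only the 2 days compared (0.0923). Slc13a2, which carries citrate cycle dicarboxylates, had 2037, 2456 and 3673 at day 6, against 3086, 2932, 3079, 2879 and 3497 at day 0 (log2 change -0.27 ± 0.19, adjusted p = 0.285). Slc13a5, a citrate carrier, had a log2 change of 0.28 ± 0.23 at day 6 (adjusted p = 0.375).

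Of the 2 sodium-calcium exchangers, 1 rose at day 4. Slc24a3, which also carries potassium, had 1524, 1966 and 2147 at day 4, against 1140, 1450, 1400, 1505 and 1254 at day 0. Day 4 lay wholly above day 0, with a log2 change of 0.47 ± 0.12 (adjusted p = 0.0111). At day 6, with 1302 to 2088, the change was 0.28 ± 0.12 (adjusted p = 0.0898). Slc8a1, the exchanger without potassium, had 342, 351 and 425 at day 4, against 397, 298, 294, 254 and 368 at day 0 (log2 change 0.18 ± 0.12, adjusted p = 0.332). Markers of several other cell types also rose at day 4, and some of these stayed higher at day 6. At day 4, 4 of the 6 smooth muscle markers rose and 0 fell, where 12.1% of all genes rose, with sums of 86659 to 111506 at day 4 and 72752 to 82451 at day 0. At day 6, 0 of 6 passed, with sums of 64964 to 92429. Of 5 endothelium markers, 4 rose at day 4 (median log2 change 0.64), with sums of 1701 to 3418 at day 4 and 1355 to 1883 at day 0. Of 5 enteric neuron and glia markers, 3 rose at day 4 (median 0.68), with sums of 1649 to 2961 at day 4 and 1196 to 1355 at day 0. At day 4, 3 of 5 macrophage and 2 of 5 fibroblast markers rose too. At day 6, 2 of the 5 endothelium and 3 of the 5 neuron and glia markers passed, all higher, and all 5 macrophage and all 5 fibroblast markers rose. The part of these cell types in the result for Slc24a3 was not tested.

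The scaffold genes that match by name gave 1 call. Slc9a3r1 binds apical exchangers and channels to ezrin, and it had 5050, 6290 and 8344 at day 6, against 6793, 6077, 6429, 7000 and 7631 at day 0 (log2 change -0.07 ± 0.11, adjusted p = 0.680). Slc9a3r2, its relative, averaged 376 ± 67.3 at day 6 and 482 ± 80.4 at day 4 (SD, n = 6 each), with a log2 change of -0.35 ± 0.12 (adjusted p = 0.0427). The lowest, median and highest were 262, 387 and 459 at day 6, against 386, 456 and 602 at day 4. The call ended when any of 7 arrays was left out. The adjusted p was 0.116, 0.0785 and 0.0581 in the absence of day 6 mice 1, 4 and 29, and 0.0528, 0.111, 0.0973 and 0.0520 in the absence of day 4 mice 1, 3, 4 and 7. It also ended without the 4 arrays that stood apart (adjusted p = 0.0951), without the filter (0.0626), with only the 2 days compared (0.0949) and with every kept probe set tested on its own (0.0504), where 3 of the 6 Slc9a3r2 probe sets fell. Slc4a1ap, an adaptor, had a log2 change of 0.17 ± 0.09 at day 6 (adjusted p = 0.169).

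The 24 genes that were not tested had 38 probe sets, none of which lay above the median of its array on more than 4 arrays. Their highest signal on any array was 194. Among them were Slc26a4, Slc4a1, Slc12a1 and Slc12a3, carriers best known from the inner ear, red blood cells and kidney, and Slc9a4, an exchanger of the stomach. The remaining ones were Slc12a5, Slc13a3, Slc13a4, Slc24a1, Slc24a2, Slc24a4, Slc26a1, Slc26a5, Slc26a7, Slc26a8, Slc26a10, Slc34a1, Slc34a3, Slc4a5, Slc4a9, Slc4a10, Slc8a2, Slc8a3 and Slc9a7. Such signals do not show that a gene is silent in colon.

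Of the 30 tested genes, 12 had more than 1 kept probe set, and at day 4 their probe sets differed. When every kept probe set was tested on its own over all 24627, 10 of the 54 carrier probe sets fell and 3 rose at day 4 relative to day 0, where 9.06% of all kept probe sets fell and 9.68% rose. For 7 genes the probe set that stood for the gene did not pass at day 4 while another fell, and for 0 genes another rose. Slc12a2 had log2 changes at day 4 of 0.01 ± 0.10 on the probe set that stands for it, -0.76 ± 0.15 (adjusted p = 0.00113) and -0.47 ± 0.13 (adjusted p = 0.0108). Its direction at day 4 turned with the probe set, and averaging its probe sets gave -0.41 (adjusted p = 0.0150). Slc4a4 had 0.02 ± 0.15 on the probe set that stands for it, and -0.60, -1.0 and -0.13 on the others, of which the -1.0 passed (adjusted p = 0.00551). Averaging gave -0.43 (adjusted p = 0.0398).

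Slc26a3 had 0.01 ± 0.18 at day 4 on the brightest probe set, and -0.32, -0.81 and 0.18 on the others, of which the -0.81 passed (adjusted p = 0.0243). Slc26a2 had -0.27 ± 0.11, -1.06 ± 0.17 and -0.10 ± 0.12, and the second of these passed (adjusted p = 0.000203). Slc20a1 had -0.22 ± 0.21 and -0.88 ± 0.24 (adjusted p = 0.0134 for the second), Slc12a7 had -0.17 ± 0.09 and -0.59 ± 0.13 (adjusted p = 0.00367), and Slc8a1 had 0.18 ± 0.12, -0.26 ± 0.24 and -1.23 ± 0.33 (adjusted p = 0.0119). Where each probe set lies on its transcript is unknown from the files. The 3′ to 5′ ratios of the control genes were higher at day 4 than at day 0, and their part in the spread between probe sets was not tested.

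At day 6 relative to day 0, the probe sets of the genes that fell went the same way. Of the 9 genes that fell relative to day 0, 7 had several kept probe sets, and all 20 of these 20 probe sets fell. Among the genes that did not pass, probe sets of both signs stood for Slc8a1 (log2 changes of -0.65 to 0.11), Slc20a2 (-0.08 to 0.06) and Slc9a3r2 (-0.24 to 0.03). In all, 22 of the 54 carrier probe sets fell and 3 rose at day 6, where 15.3% of all kept probe sets fell and 14.2% rose. Sizes still differed within a gene. Slc26a3 had log2 changes of -0.74, -0.96, -1.46 and -1.44, Slc12a2 of -0.31, -1.10 and -0.80, and Slc26a2 of -0.81, -1.48 and -0.70. At day 4 relative to day 2, 8 carrier probe sets fell and 0 rose, where 6.15% and 6.90% of all kept probe sets did. For 5 genes (Slc12a7, Slc20a1, Slc26a2, Slc26a3 and Slc9a3r1) the probe set that stood for the gene did not pass there while another fell, and for 0 genes another rose. Slc12a8, which fell in that comparison, had 2 kept probe sets, of which 1 fell. At day 6 relative to day 4, 11 fell and 1 rose, where 10.2% and 8.01% did. The 6 genes that fell in that comparison had 22 kept probe sets, all with negative log2 changes, of which 11 fell. On all kept probe sets, 0 of these genes fell. The counts were 1 of 2 for Slc20a1, 1 of 3 for Slc12a2, 1 of 4 for Slc4a4, 3 of 4 for Slc26a3, 2 of 3 for Slc26a2 and 3 of 6 for Slc9a3r2. At day 2 relative to day 0, 0 fell and 0 rose, where 0.0934% fell and 0.0284% rose.

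**Figure D3:**
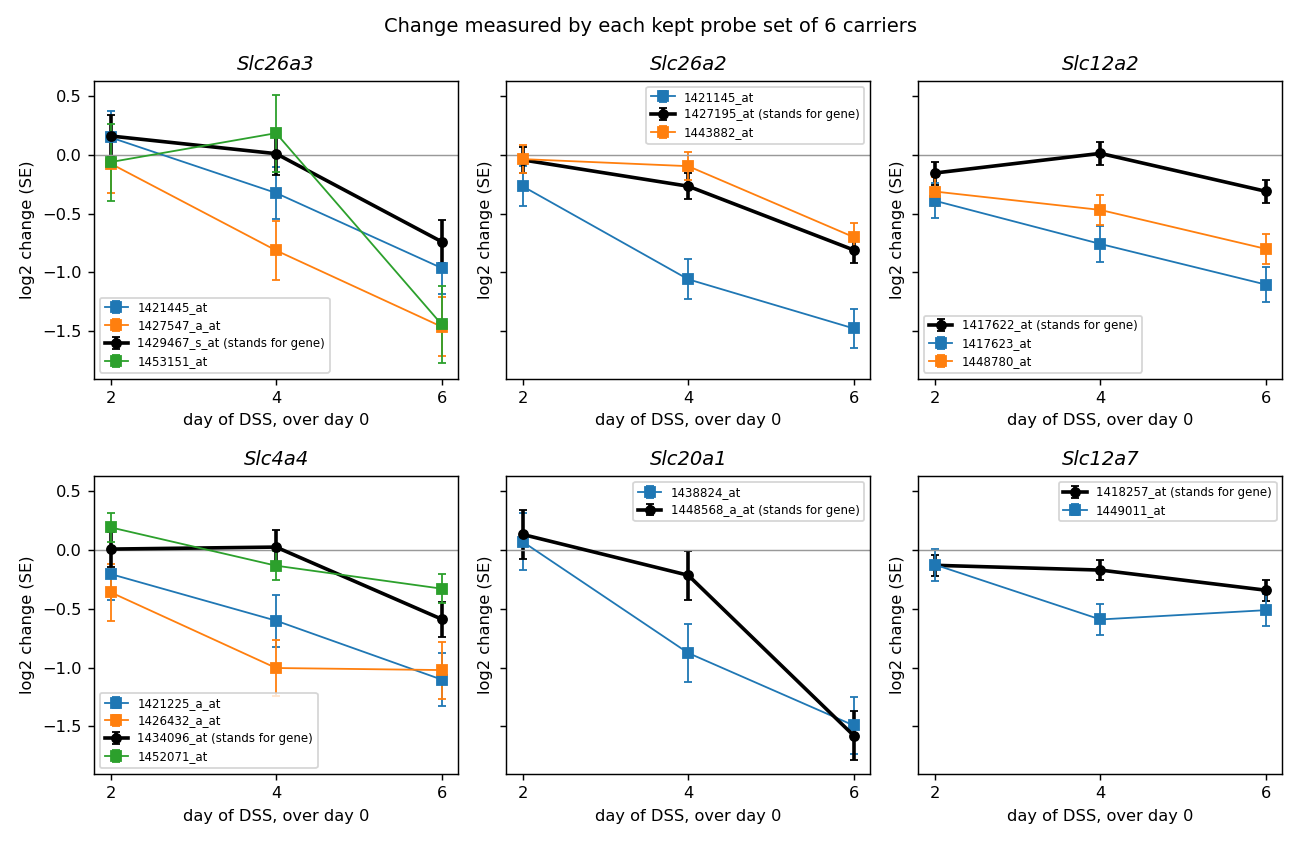
Log2 change over day 0 (vertical axis, with SE bars) at days 2, 4 and 6 (horizontal axis) for each kept probe set of 6 carriers, with the probe set that stands for the gene in black. At day 4 the black line lies near 0 for Slc26a3 (0.01), Slc12a2 (0.01) and Slc4a4 (0.02) while another probe set lies at -0.81, -0.76 and -1.0, and at day 6 all lines lie below 0.

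Single arrays also set the spread. Day 4 mouse 4 had the lowest signal of its day for 13 of the 30 genes and for 6 of the 9 genes that fell at day 6. Of all 23 arrays it also had the lowest summed signal of absorptive colonocyte markers (68668) and goblet cell markers (70695) and the highest of smooth muscle markers (111506), and it is not among the 4 arrays that stood apart. Day 6 mouse 21 had the lowest of its day for 12 of the 30 and 5 of the 9. Day 6 mouse 29 had the highest of its day for 4 of the 9. The same ranks over all tested genes were not counted, so these counts do not show a trait of the carriers.

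Markers of the epithelium were counted beside the carriers. Of 7 pan-epithelial markers, 3 fell and 0 rose at day 6 relative to day 0, where 14.4% of all genes fell, with a median log2 change of -0.12. Their summed signal was 90404 to 112767 at day 6 and 113322 to 121728 at day 0, so the days did not overlap. Of 8 absorptive colonocyte markers, a list that holds Slc26a3 itself, 2 fell and 0 rose (median -0.22), with sums of 80540 to 108387 at day 6 and 102548 to 113505 at day 0. The 2 that fell were Slc26a3 and Aqp8, so 1 of them is itself a carrier counted above. Of 6 goblet cell markers 1 fell, a share near the 14.4% of all genes, and 0 rose (median -0.21), with sums of 94148 to 111511 at day 6 and 108409 to 117503 at day 0. At day 4, 2 of the 7 pan-epithelial, 3 of the 8 colonocyte and 1 of the 6 goblet cell markers fell and 0 rose, where 4.34% of all genes fell. At day 6 relative to day 4, 2 of the 8 colonocyte markers rose and 1 fell, and the one that fell was Slc26a3. Of the 7 pan-epithelial markers 1 fell and 0 rose there, and 0 of the 6 goblet cell markers passed. Of all genes, 13.7% fell and 9.07% rose in that comparison.

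Markers of some other cell types rose over the same days as Slc12a4, Slc9a9 and Slc4a11, and those of others did not. All 5 fibroblast markers rose at day 6, with sums of 41696 to 67889 at day 6 and 28235 to 34896 at day 0, and all 5 macrophage markers rose, with sums of 8888 to 16525 at day 6 and 4181 to 5586 at day 0. All 3 neutrophil markers that were tested rose, with sums over 4 markers of 1938 to 12309 at day 6 and 162 to 421 at day 0. Of 6 squamous epithelium markers 2 rose at day 6, where 18.1% of all genes rose. At day 6, 0 of 6 smooth muscle, 0 of 6 skeletal muscle, 0 of 2 fat and 0 of 2 pancreas markers passed. Of 2 T and B cell markers, 0 rose and 1 fell. No listed epithelial, fibroblast or macrophage marker was at 0 on any array. This does not show that those cells were present, since dim markers were not at 0 either. The red blood cell marker Rhag, which did not pass the filter, had a lowest signal of 0.698 at day 0. The part of cell makeup in the results for the carriers was not tested.

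A list of 46 genes that work with these carriers (pumps, channels, carbonic anhydrases, regulators and aquaporins) gave 41 tested genes. At day 2 relative to day 0, 0 passed in either direction, where 0.0802% of all genes did. An unadjusted limma p below 0.05 was seen for 10 of them, and the share of all genes with such a p was not counted. At day 4, 8 fell and 2 rose (median log2 change -0.12), where 4.34% of all genes fell and 12.1% rose. At day 6, 22 of the 41 fell and 6 rose (median -0.50), where 14.4% of all genes fell and 18.1% rose. The day 4 total of 10 was 6 without day 0 mouse 3, 6 without day 0 mouse 5 and 5 without day 4 mouse 4. It was 0 with the hybridization control level as a covariate, and the day 6 total of 28 was 10.

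At day 4 relative to day 0, Scnn1g, a subunit of the epithelial sodium channel, had a log2 change of -1.55 ± 0.49 (adjusted p = 0.0314), Aqp8, a water channel of colonocytes, of -1.11 ± 0.28 (adjusted p = 0.0086), Sgk1, a kinase that raises sodium channel activity, of -1.05 ± 0.24 (adjusted p = 0.00477), Chp2, a cofactor of sodium-proton exchangers, of -0.96 ± 0.18 (adjusted p = 0.00102) and Car4, an apical carbonic anhydrase, of -0.85 ± 0.27 (adjusted p = 0.0335). Scnn1g was dim, with means of 30.2 ± 23.6 at day 4 (SD, n = 6) and 110 ± 41.5 at day 0 (SD, n = 5). The 2 that rose were the potassium channel gene Kcnma1, by 0.45 ± 0.12, and Wnk1, a kinase upstream of cation-chloride cotransporters, by 0.21 ± 0.06. Both turned when their probe sets were averaged. Averaged, Wnk1 passed as lower (-0.69, adjusted p = 0.00274), and Kcnma1 did not pass (-0.23, adjusted p = 0.273). The direction of Wnk1 at day 4 therefore depended on how its probe sets were taken.

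Within this list of 41, the log2 change at day 6 was lowest for Best2, Fxyd4, Ano1, Aqp8 and Chp2. Best2, a bicarbonate-permeable anion channel of goblet cells in mouse colon, averaged 264 ± 183 at day 6 (SD, n = 6) and 804 ± 147 at day 0 (SD, n = 5), a log2 change of -1.78 ± 0.29 (adjusted p = 5.12e-05). Fxyd4, a modulator of the sodium pump, had a log2 change of -1.68 ± 0.46 (adjusted p = 0.00643). Ano1, a calcium-activated chloride channel, had -1.26 ± 0.24 (adjusted p = 0.00024), Aqp8 had -1.23 ± 0.28 (adjusted p = 0.00153) and Chp2 had -1.17 ± 0.18 (adjusted p = 2.97e-05). For all 5 of these genes, named for the lowest changes, the arrays of day 6 lay wholly below those of day 0. The same held for 19 of the 41 partner genes, against 6.67% of all genes.

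Of the 6 that rose at day 6, Fxyd5, another modulator of the sodium pump, averaged 1538 ± 532 at day 6 (SD, n = 6) and 534 ± 77.0 at day 0 (SD, n = 5), with a log2 change of 1.45 ± 0.17 (adjusted p = 1.26e-06). Car12, a membrane carbonic anhydrase, rose by 0.62 ± 0.19, Atp1b3, a subunit of the sodium pump, by 0.50 ± 0.10, and Nedd4l, a ubiquitin ligase that removes sodium channels from the membrane, by 0.44 ± 0.09 on the log2 scale, with adjusted p of 0.0139, 0.000554 and 0.000543. Kcnma1 rose by 0.38 ± 0.12 (adjusted p = 0.0165), but its direction turned when its probe sets were averaged (-0.16, adjusted p = 0.421).

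**Figure D4:**
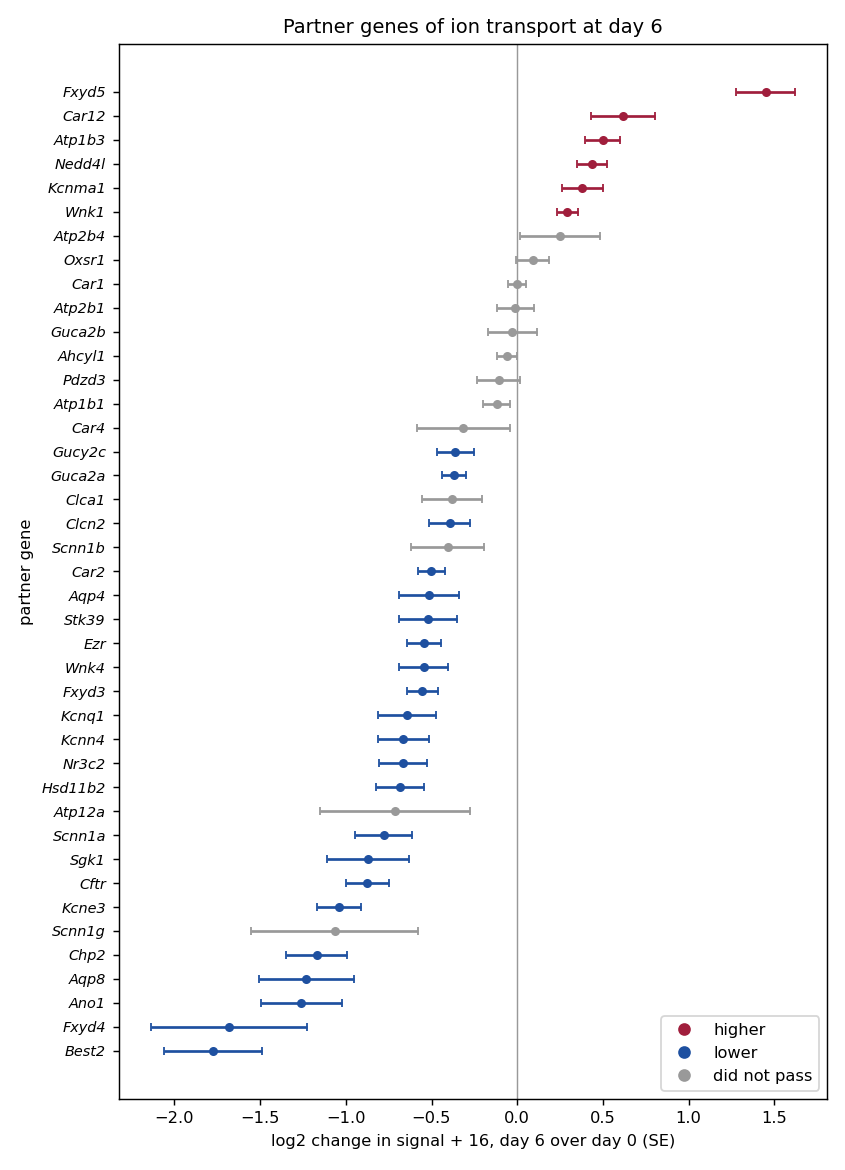
Log2 change at day 6 over day 0 (horizontal axis, with SE bars) of the 41 tested partner genes (rows), in red where the gene rose, blue where it fell and grey where it did not pass. The points run from Best2 at -1.78 to Fxyd5 at 1.45, with 22 blue and 6 red.

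At day 4 relative to day 2, 7 partner genes fell and 2 rose, where 4.12% of all genes fell and 9.45% rose. At day 6 relative to day 4, 15 fell and 2 rose, where 13.7% of all genes fell and 9.07% rose. At day 4 over day 2, Guca2b and Chp2 fell by 0.52 each on the log2 scale and Aqp4 rose by 0.50. The total of 9 was 5, 4 and 4 in the absence of day 2 mice 1, 7 and 17, and 3 in the absence of day 4 mouse 1, 3 or 4. At day 6 over day 4, Best2 fell by 1.63, Fxyd4 by 1.49, Ano1 by 1.02, Kcne3, a subunit of a basolateral potassium channel, by 0.82 and Hsd11b2, which shields the mineralocorticoid receptor from glucocorticoids, by 0.65, while Fxyd5 rose by 0.95 and Nedd4l by 0.35.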

How the data were processed

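RNA of mouse colon was measured on 23 arrays, 1 per animal. What the authors deposited is 1 linear signal intensity for each probe set and array, from MAS5 of an unnamed version per the submitters' processing notes. A mean trimmed by 2% at both ends came to 500 on every array, with medians of 97.3 to 121, so the arrays were not scaled again. Total RNA per cell is not visible after such scaling. Precision is limited by how many arrays there are.

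Of 45101 probe sets, 64 controls were left out. The platform annotation, which can be old, gave 1 symbol for 34945, several for 932 and none for 9160, and only probe sets with 1 symbol were named. Each of the columns matched a sample, so 0 were left out as unmapped. The filter kept 24627 probe sets, and the kept probe set with the highest mean stood for a gene (12463 genes). Signals as log2(signal + 16) went into 1 fit of all 4 days with 5 contrasts (limma 3.58.1 under R 4.3.3, lmFit and then eBayes with trend). The p-values were two-sided and adjusted per contrast by Benjamini-Hochberg over all genes. The fit was tested on simulated data. Sums of markers add the signals of the listed genes that matched. Promoter windows and starts came from RefSeq (GRCm38.p6).

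Named genes were the carriers called in a comparison, the carrier of each family with the highest mean signal, and up to 5 partner genes called in each direction per comparison, with other carriers named where their role needs it. The carriers, lists and alternatives were chosen with earlier results of these data known. Alternatives were other pseudocounts (1 and 64), quantile normalization, median centring, no filter, the mean of a gene's probe sets, each probe set on its own, only the 2 days compared, the hybridization controls as a covariate, a block by mouse number, and leaving out 1 or 4 arrays. The labels state no pairing of mice by number, so the main fit had no block. Deviations from the day means correlated above 0.1 in 3 of 17 pairs of arrays with the same number. The same held for 35 of 181 other pairs of different days. Values were -0.16 to 0.70 for the same number and -0.50 to 0.38 for the others. These correlations cannot settle whether mice with the same number are related.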

Additional observations from a re-analysis of the deposited data

Results flagged for a closer look

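In groups of 4 to 10 arrays, the gap of the highest or lowest array to the next was set against the range of its day. Of 120 groups (30 tested genes by 4 days), 8 had an array far from the others (6.67%), where chance gives about 1 in 20. Slc34a2 had 559 on day 6 mouse 29, where the next highest was 296 and the lowest 183. Slc12a8 had 2504 on day 2 mouse 8, where the next was 1886 and the lowest 1584. Slc8a1 had 425 on day 4 mouse 8, where the next was 363 and the lowest 342. Slc13a1 had 445 on day 0 mouse 2, where the next lowest was 643 and the highest 723. Slc4a11 had 152 on day 0 mouse 3, where the next lowest was 263 and the highest 278. Slc9a5 had 211 on day 4 mouse 4, where the next was 149 and the lowest 132. Slc4a3 had 152 on day 4 mouse 1, where the next lowest was 227 and the highest 265. Slc4a8 had 164 on day 0 mouse 5, where the next was 65.5 and the lowest 27.9. Day 2 mouse 8 and day 4 mouse 8 are the arrays that were low in squamous markers.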

How the results depend on the processing

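Pseudocounts of 1 and 64 and quantile normalization kept the direction and the call of all 27 carrier calls. With the hybridization control level as a covariate, the count of carriers that fell was 1 at day 4 and 3 at day 6 relative to day 0 and 0 at day 4 relative to day 2, the count that rose was 0 at day 4 and 1 at day 6 relative to day 0, and partner totals were 0 at day 4 and 10 at day 6 relative to day 0 and 0 at day 4 relative to day 2. The level itself differed between these days. Testing each probe set gave 10 lower at day 4 and 22 at day 6 relative to day 0, 8 at day 4 relative to day 2 and 11 at day 6 relative to day 4. The mean of a gene's probe sets gave 7 lower at day 4 relative to day 0, and it turned the log2 change of Slc12a2 (-0.41), Slc4a4 (-0.43), Kcnma1 (-0.23) and Wnk1 (-0.69) at day 4 over day 0, of Kcnma1 at day 6 over day 0 (-0.16) and of Wnk1 at day 4 over day 2 (-0.33). Without the 4 arrays that stood apart, 5 carriers rose at day 6 relative to day 0. With only the 2 days compared, 1 carrier fell and 2 partner genes passed at day 2 relative to day 0. Without a filter, 1 carrier rose at day 4 relative to day 2, and median centring gave 3 partner genes there. Shares of all genes were counted only in the main fit and with each probe set tested on its own. For the other alternatives, a change in these counts cannot be set against all genes. Beyond the constructions named, the causes were not tested.

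Leaving out 1 array at a time gave 2 to 4 carriers higher and 2 to 3 lower at day 4 relative to day 0, 3 to 5 higher and 9 to 10 lower at day 6 relative to day 0, 0 to 1 higher and 1 to 5 lower at day 4 relative to day 2, and 1 to 2 higher and 5 to 7 lower at day 6 relative to day 4. It gave 0 at day 2 each time. Partner totals were 5 to 13 at day 4 and 26 to 29 at day 6 relative to day 0, 3 to 12 at day 4 relative to day 2 and 14 to 20 at day 6 relative to day 4.

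With a replicate block by mouse number (consensus correlation 0.03), all 27 carrier calls passed, with 2 lower and 3 higher at day 4 and 9 lower and 3 higher at day 6 relative to day 0.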
